A study of Mus musculus with 4 samples.

Results

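The genes described here are the G1 cyclins, their partner kinases and the inhibitors of those kinases in activated mouse B cells. They were chosen by symbol: the D-type cyclins Ccnd1, Ccnd2 and Ccnd3, the kinases Cdk4 and Cdk6, the Cip/Kip inhibitors Cdkn1a and Cdkn1b, and the INK4 inhibitors Cdkn2a, Cdkn2c and Cdkn2d. All 10 symbols were found among 23699 entries of the expression table, and 9 of them reached the level needed for testing, which was 1 FPKM in at least 2 of 4 libraries. FPKM is the number of sequenced fragments scaled for transcript length and library size. Cdkn2d has 2 loci in the table, and the locus with the higher mean was used.

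The libraries came from splenic B cells of C57BL/6 mice. All cells received an antibody to Cd40 for 48 h, with LPS, PMA and ionomycin added in the last 5 h. The gate for B10+ cells was Cd1d high, Cd5 positive and Il10 positive, and in that for B10- cells Cd1d, Cd5 and Il10 were all negative. There were 2 libraries per subset: culture 1 gave a B10+ and a B10- library, and so did culture 2. The sorts differ in Cd1d and Cd5 as well as in Il10, so a difference between them cannot be assigned to any single gate. The number of mice behind each culture was not stated in the labels.

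D-type cyclins are made in response to growth signals and bind Cdk4 or Cdk6. The active complexes phosphorylate the retinoblastoma protein and so release E2f factors, which drive the genes of DNA replication. INK4 proteins bind Cdk4 and Cdk6 and block their pairing with D-type cyclins, whereas Cip/Kip proteins bind whole cyclin-kinase complexes and mainly inhibit those of Cdk2. In mouse B cells, Ccnd2 and Ccnd3 are the D-type cyclins known for their roles in activation and in development, and Cdkn2a is known as a barrier to transformation by Myc.

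Promoter sequences are shown for 4 genes, each for its part in the results: the 2 kinases, whose balance differed between the cultures, and Cdkn2a with its neighbour Cdkn2b, the inhibitor genes with the largest mean log2 differences between the sorted subsets. Each window runs from 250 bases before to 50 bases after an annotated start, on the strand of the gene, in RefSeq sequence of GRCm38.p6. RefSeq windows were matched for 8 of the 10 genes, 12 windows in all. Capitals mark matches on either strand to the E-box CACGTG, to the GC box GGGCGG, or to TTTNNCGC, a form of the E2f site. A match on the opposite strand appears as its reverse complement.
Cdk4, chr10:127063285-127063584, plus strand: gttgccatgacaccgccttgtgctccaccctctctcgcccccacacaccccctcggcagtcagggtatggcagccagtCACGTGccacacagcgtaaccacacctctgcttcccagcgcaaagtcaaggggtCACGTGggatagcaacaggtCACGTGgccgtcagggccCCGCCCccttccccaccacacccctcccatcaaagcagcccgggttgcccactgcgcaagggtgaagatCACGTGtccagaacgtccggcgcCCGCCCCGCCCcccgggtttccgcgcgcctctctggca
Cdk6, chr5:3343643-3343942, plus strand: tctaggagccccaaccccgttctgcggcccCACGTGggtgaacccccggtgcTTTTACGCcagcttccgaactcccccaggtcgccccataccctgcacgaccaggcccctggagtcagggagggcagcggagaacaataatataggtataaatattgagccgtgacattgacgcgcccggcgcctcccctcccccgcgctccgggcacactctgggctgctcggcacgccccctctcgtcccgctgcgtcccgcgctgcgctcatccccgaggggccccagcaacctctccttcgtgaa
Cdkn2a, distal start, chr4:89294570-89294869, minus strand: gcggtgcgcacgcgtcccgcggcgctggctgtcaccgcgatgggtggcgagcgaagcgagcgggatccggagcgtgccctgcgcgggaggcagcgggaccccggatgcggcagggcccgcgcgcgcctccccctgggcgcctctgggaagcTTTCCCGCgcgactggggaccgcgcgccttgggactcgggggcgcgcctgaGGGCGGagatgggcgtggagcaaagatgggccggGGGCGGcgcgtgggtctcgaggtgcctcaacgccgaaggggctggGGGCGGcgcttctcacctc
Cdkn2a, proximal start, chr4:89282143-89282442, minus strand: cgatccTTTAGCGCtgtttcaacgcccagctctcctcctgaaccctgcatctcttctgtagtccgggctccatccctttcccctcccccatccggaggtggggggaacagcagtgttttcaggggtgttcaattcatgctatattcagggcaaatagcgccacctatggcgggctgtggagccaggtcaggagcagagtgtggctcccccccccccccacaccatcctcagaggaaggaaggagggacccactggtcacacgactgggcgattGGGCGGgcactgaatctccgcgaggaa
Cdkn2b, chr4:89310983-89311282, minus strand: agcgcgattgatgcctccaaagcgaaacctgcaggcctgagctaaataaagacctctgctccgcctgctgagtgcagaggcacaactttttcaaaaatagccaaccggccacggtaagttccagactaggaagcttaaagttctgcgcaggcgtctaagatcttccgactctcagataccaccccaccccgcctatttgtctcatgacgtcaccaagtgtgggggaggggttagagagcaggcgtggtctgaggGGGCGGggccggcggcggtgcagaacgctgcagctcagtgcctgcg

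The Cdk4 window held 4 E-boxes and 3 GC boxes, of which 2 overlapped by 1 base. The Cdk6 window held 1 E-box and 1 TTTNNCGC match and no GC box. Of 32851 promoter windows of the same length, 7.15% held CACGTG, 35.7% held GGGCGG and 5.17% held TTTNNCGC. Both Cdkn2a windows held 1 TTTNNCGC match, with 3 GC boxes at the distal start and 1 at the proximal start, and the Cdkn2b window held 1 GC box. Among the 12 windows of the 8 matched genes, 9 held GGGCGG, 3 held CACGTG and 3 held TTTNNCGC. The AP-1 motif TGANTCA was in 0 of the 12 and in 7.81% of all windows. These matches describe letters in a window and say nothing of binding.

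The low FPKM values stepped in whole fragments, which gave an approximate depth. A single fragment on a transcript of 1 kb was worth 0.0304 to 0.0453 FPKM, so the libraries were scaled to about 22100000 to 32900000 fragments. Of the low values used for this estimate, 72.9% to 74.4% lay within 0.15 of a whole fragment. The 7 shared B cell markers read here summed to 183 to 541 FPKM in the 4 libraries. T cell markers summed to 3.7 to 10.5 FPKM, mostly from Lck, and neutrophil and natural killer markers to less than 0.2 FPKM in each library, with S100a8, S100a9, Elane and Ncr1 at 0 throughout. Dendritic cell markers, led by Flt3 in culture 1 and by Zbtb46 in culture 2, summed to 6.34 to 41.9 FPKM. Of the other dendritic markers, Siglech reached at most 0.0147 FPKM, Itgax 1.51 FPKM and Xcr1 1.79 FPKM in any library. Erythroid markers, led by Hbb-b1, summed to 29.3 to 81.9 FPKM. Il10, which was used for the sort, was at 9.26 and 9.62 FPKM in B10- cells and above 1000 FPKM in both B10+ libraries. The libraries of a culture resembled each other more (r = 0.965 and 0.947) than the libraries of a subset did (r = 0.840 and 0.836), so each gene is given by culture.

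Ccnd2 and Cdk4 were the most abundant of the 10 genes, and the inhibitors the least abundant together with Ccnd1. Cdk4 held rank 1 and Ccnd2 rank 2 in both libraries of culture 1, and they exchanged places in both libraries of culture 2. Cdk6 held rank 3 and Ccnd3 rank 4 in all 4 libraries. Below them the order varied. Cdkn2a held rank 5 in both B10+ libraries and rank 10, the lowest place, in both B10- libraries. Cdkn1b, Cdkn1a, Cdkn2c and Cdkn2d took different places in different libraries, and their FPKM ranges over the 4 libraries overlapped. Cdkn1b stood above Cdkn2d in every library.

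**Figure D1:**
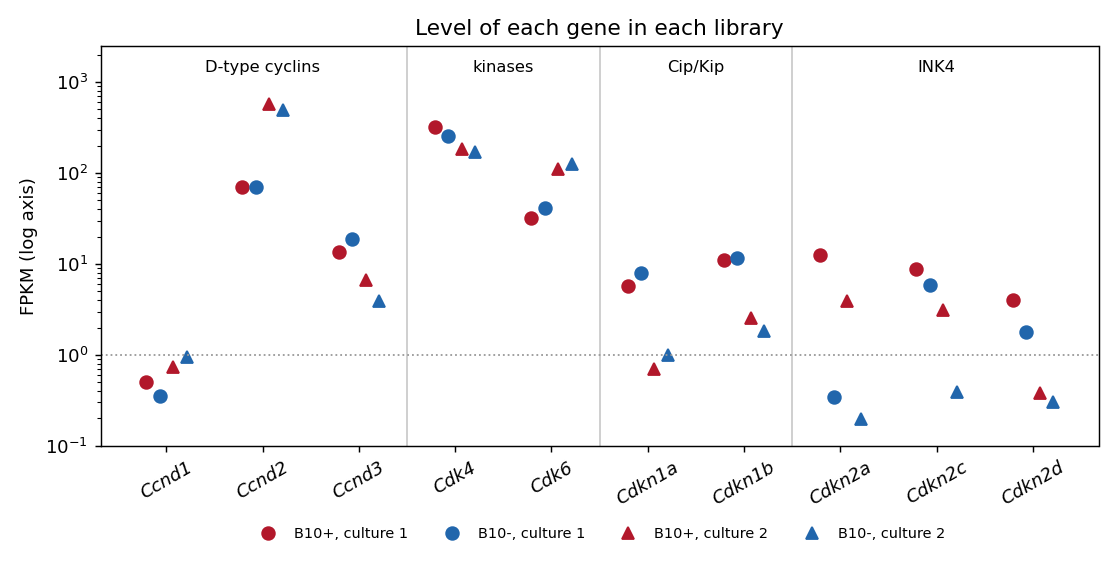
FPKM (log axis) of each of the 10 genes in each library, with B10+ in red, B10- in blue, culture 1 as circles and culture 2 as triangles; the dotted line marks 1 FPKM. Within a culture the red and blue symbols of most genes lie close together, while those of Cdkn2a are apart (12.4 and 0.345 FPKM in culture 1, 3.9 and 0.196 FPKM in culture 2).

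No gene of the 10 passed the threshold between B10+ and B10- cells. In limma's test on log2(FPKM + 1) without the culture, 0 of 9 tested genes were called, and 0% of all 10367 tested entries were called higher and 0% lower. At an unadjusted p under 0.05, that fit held 1 of the 9 genes, Cdkn2a, beside 109 higher (1.05%) and 9 lower (0.0868%) tested entries. With the culture as a block, again 0 of 9 were called, against 0.781% of all entries called higher and 0.0772% called lower in B10+ cells. Unadjusted, 2 of the 9 were under 0.05 in that fit, Cdkn2a and Cdkn2c, beside 1089 higher (10.5%) and 483 lower (4.66%) tested entries.

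In direction, 5 of the 9 tested genes were higher in B10+ cells in both cultures: Ccnd2, Cdk4, Cdkn2a, Cdkn2c and Cdkn2d. Of these 5, Ccnd2 differed by only 0.005 on the log2 scale in culture 1. Cdkn2d differed by 0.08 in culture 2, where its values rest on about 11 to 14 fragments. Lower in both were 2 genes, Cdk6 and Cdkn1a. Ccnd3 and Cdkn1b differed in direction between the cultures. Of all tested entries, 33.4% were higher in both cultures, 31.8% lower in both and 34.7% of opposite direction. The median log2 difference of the 9 genes was 0.12, against 0.00 over all tested entries. More than 2-fold higher in both cultures was 1 of the 9, Cdkn2a, against 2.28% of all tested entries. Cdkn2a passed the filter only through the B10+ libraries, where it is high. Its place in that count, in the count by direction and in the counts under 0.05 thus carries no weight of its own. In bulk libraries such as these, fewer cells of a type and less RNA per cell cannot be told apart.

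**Figure D2:**
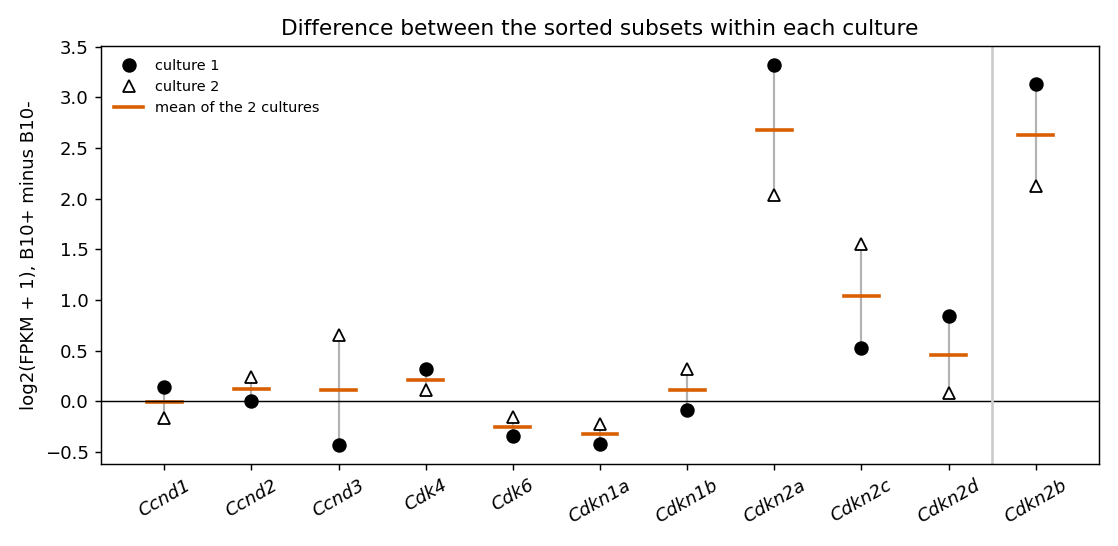
Difference in log2(FPKM + 1) between B10+ and B10- cells in culture 1 (filled circles) and culture 2 (open triangles), with the mean of both as a bar, for the 10 genes and, right of the grey line, for Cdkn2b. Cdkn2a and Cdkn2b lie above 2 in both cultures, Cdkn2c at 0.53 and 1.56, and most others near 0.

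Ccnd2 supplied most D-type cyclin RNA in every library. Ccnd2 (chr6:127075727-127101066, mm9) measured 70.2 FPKM (B10+) and 69.9 FPKM (B10-) in culture 1, and 579 and 489 FPKM in culture 2. The subsets were nearly level within a culture, and both libraries of culture 2 were far above both of culture 1. The log2 difference between the subsets was 0.12 ± 0.17 (between-culture SD, n = 2), with a 95% interval of -0.25 to 0.50, and the fit of limma with the culture block gave an adjusted p of 0.693. Intervals of differences here and below come from that fit. The locus overlaps 9330179D12Rik by 1660 bases, an entry at 0.554 to 2.18 FPKM.

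Ccnd3, the D-type cyclin that large pre-B cells and germinal centre B cells depend on in mice, was higher in culture 1 than in culture 2. Ccnd3 (chr17:47642000-47736637) measured 13.7 FPKM (B10+) and 18.7 FPKM (B10-) in culture 1, and 6.70 and 3.87 FPKM in culture 2. Both libraries of culture 1 were above both of culture 2, and B10+ cells were lower in culture 1 but higher in culture 2. The log2 difference was 0.12 ± 0.77 (between-culture SD; 95% interval -0.71 to 0.94), and the block fit of limma gave an adjusted p of 0.877. The locus overlaps Bysl by 358 bases, an entry at 23.4 to 33.0 FPKM, and how reads in the overlap were assigned is not given in the sources used here.

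Ccnd1, the D-type cyclin of many epithelial cells, stayed under 1 FPKM in all 4 libraries and was not tested. Ccnd1 (chr7:152115836-152125830) measured 0.498 FPKM (B10+) and 0.355 FPKM (B10-) in culture 1, and 0.744 and 0.951 FPKM in culture 2. These values stand for about 52, 33, 61 and 117 fragments. The groups overlapped, and the higher subset was B10+ in culture 1 and B10- in culture 2.

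As a share of summed D-type cyclin FPKM, Ccnd2 made up 83.2% in B10+ and 78.6% in B10- cells of culture 1, and 98.7% and 99.0% in culture 2. Ccnd3 took 16.2% and 21% in culture 1, and 1.14% and 0.785% in culture 2. Ccnd1 took less than 0.6% everywhere. Both culture 2 libraries had a higher Ccnd2 share than both culture 1 libraries. The ratio of Ccnd2 to Ccnd3 was 5.13 in B10+ and 3.74 in B10- cells of culture 1, and 86.4 and 126 in culture 2. Between the subsets the exact permutation test gave p = 1, in a design of 2 against 2 whose smallest two-sided p is 0.333. Here and below, that test takes the libraries as unpaired, so the spread between the cultures enters its p.

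The 2 kinases were both abundant, and their balance shifted with the culture. Cdk4 (chr10:126500659-126504338) measured 320 FPKM (B10+) and 257 FPKM (B10-) in culture 1, and 185 and 171 FPKM in culture 2. B10+ cells were the higher subset in each culture, and both culture 1 libraries were above both of culture 2. The log2 difference between the subsets was 0.22 ± 0.15 (between-culture SD; 95% interval -0.15 to 0.58), and the block fit of limma gave an adjusted p of 0.498.

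Cdk6 (chr5:3344312-3522225), the kinase that prevails in many blood cells, measured 32.2 FPKM (B10+) and 40.9 FPKM (B10-) in culture 1, and 112 and 125 FPKM in culture 2. Here B10- cells were the higher subset in each culture and culture 2 was higher than culture 1. The log2 difference between the subsets was -0.25 ± 0.13 (between-culture SD; 95% interval -0.61 to 0.11), and the block fit of limma gave an adjusted p of 0.449. Its sign depended on the scaling: it was 0.04 when libraries were scaled to their sum without histone entries, a scaling that moved the median of all entries by 0.24.

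The ratio of Cdk6 to Cdk4, which does not depend on library scaling, was 0.101 in B10+ and 0.159 in B10- cells of culture 1, and 0.602 and 0.727 in culture 2. It was lower in B10+ cells within each culture, but the B10+ library of culture 2 lay above the B10- library of culture 1, and the exact permutation test gave p = 0.667. The sum of both kinases varied less than either of them: it was 353 FPKM (B10+) and 298 FPKM (B10-) in culture 1, and 297 and 296 FPKM in culture 2.

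**Figure D3:**
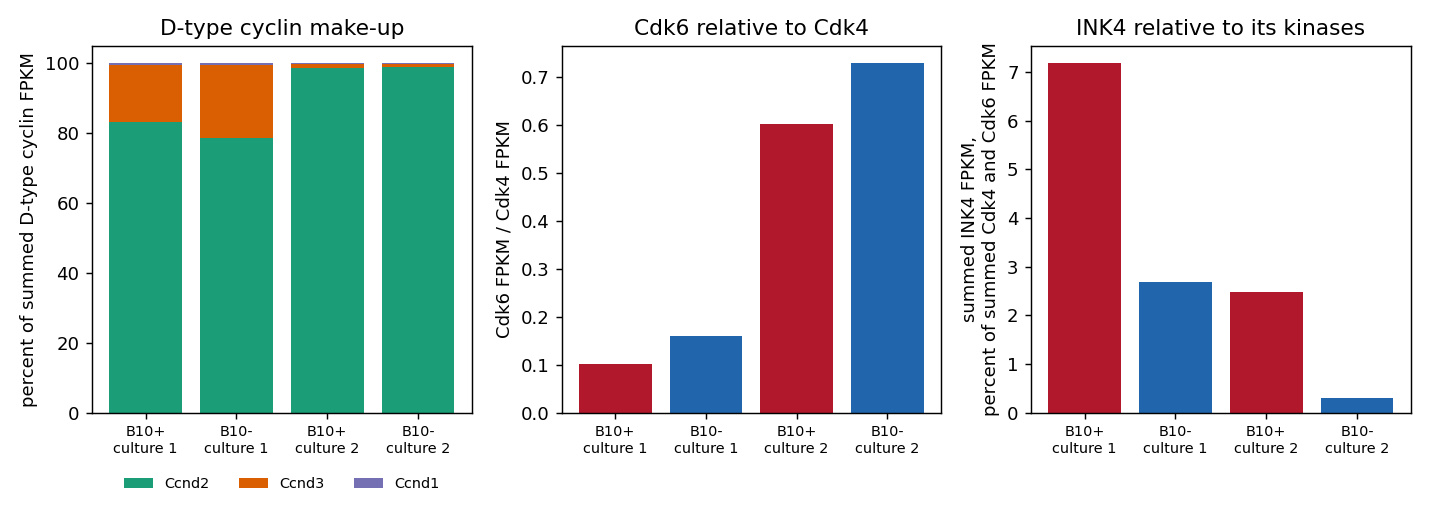
Per library, the percentage of summed D-type cyclin FPKM taken by each cyclin (left), the ratio of Cdk6 to Cdk4 FPKM (middle), and summed INK4 FPKM as a percentage of summed Cdk4 and Cdk6 FPKM (right). INK4 here is Cdkn2a, Cdkn2c and Cdkn2d, without Cdkn2b, and B10+ is red and B10- blue in the last 2 panels. The first 2 panels separate the cultures (Ccnd2 share 78.6% and 83.2% against 98.7% and 99.0%), and in the third the B10+ bar is the taller one in each culture.

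The Cip/Kip inhibitors were low and tracked the culture. Cdkn1a (chr17:29227931-29237667) encodes p21, a main target of p53. It measured 5.69 FPKM (B10+) and 7.94 FPKM (B10-) in culture 1, and 0.701 and 0.987 FPKM in culture 2. B10- cells held the higher value in each culture, and culture 2 was under 1 FPKM in both subsets. The log2 difference was -0.32 ± 0.14 (between-culture SD; 95% interval -0.77 to 0.13), and the block fit of limma gave an adjusted p of 0.433.

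Cdkn1b (chr6:134870419-134875543) encodes p27, which holds resting lymphocytes out of the cycle and is lost as they are activated. It measured 11 FPKM (B10+) and 11.8 FPKM (B10-) in culture 1, and 2.52 and 1.82 FPKM in culture 2. The subsets were close in each culture and differed in direction between cultures. The log2 difference was 0.12 ± 0.29 (between-culture SD; 95% interval -0.40 to 0.64), and the block fit of limma gave an adjusted p of 0.797. Under quantile normalization the difference was -0.02.

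Cdkn1b exceeded Cdkn1a in every library: the ratio was 1.94 in B10+ and 1.48 in B10- cells of culture 1, and 3.60 and 1.84 in culture 2. Both B10- values lay below both B10+ values, which gives the smallest p the design allows, 0.333 in the exact permutation test. Summed Cip/Kip FPKM came to 19.8% and 22.2% of summed D-type cyclin FPKM in B10+ and B10- cells of culture 1. In culture 2 the share was 0.549% and 0.568%. The subsets of a culture were thus close in this share, and the cultures were far apart.

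All 3 INK4 genes had higher FPKM in B10+ than in B10- cells in both cultures, though for Cdkn2d in culture 2 the fragments were too few to resolve a direction. Cdkn2a (chr4:88920377-88940523) encodes p16Ink4a and, from another first exon and reading frame, Arf, which stabilizes p53 by binding Mdm2. The distal promoter printed above belongs to Arf and the proximal one to p16Ink4a, and the table gives 1 value for both products. Cdkn2a measured 12.4 FPKM (B10+) and 0.345 FPKM (B10-) in culture 1, and 3.9 and 0.196 FPKM in culture 2. Both B10+ libraries were above both B10- libraries, with no overlap.

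The ratio of B10+ to B10- Cdkn2a was 36.1 in culture 1 and 19.9 in culture 2. The log2 difference was 2.68 ± 0.91 on the log2(FPKM + 1) scale (between-culture SD), a scale that understates the change of low genes, with a 95% interval of 1.75 to 3.61 in the fit with the block. It missed the threshold: limma's adjusted p was 1 without the block and 0.0692 with it. Across the 6 fits with the block in which Cdkn2a was tested, 4 called it, but 5 of these 6 fits took it in only through the B10+ libraries, where it is high. Its adjusted p was 0.0474 with a pseudocount of 0.1, 0.0338 under quantile normalization, and 0.000177 and 0.045 under 2 other library scalings, against 0.112 with no filter on low values. The B10- values rest on few fragments, about 7 to 8 in culture 1 (95% Poisson interval 2.81 to 15.8) and 5 to 6 in culture 2 (1.62 to 13.1), against about 298 to 313 and 73 to 77 in B10+ cells. These intervals cover counting error only.

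Cdkn2b, which encodes p15Ink4b, lies 11.7 kb from Cdkn2a and is not among the 10 genes. Cdkn2b (chr4:88952198-88956941) measured 46.0 FPKM (B10+) and 4.37 FPKM (B10-) in culture 1, and 11.2 and 1.79 FPKM in culture 2. B10+ exceeded B10- cells 10.5-fold and 6.26-fold in these cultures, and the groups did not overlap. The log2 difference of Cdkn2b was 2.63 ± 0.71 (between-culture SD), and the block fit of limma gave an adjusted p of 0.0557. Over 7 fits with the block the adjusted p ran from 0.0276 to 0.228, and 3 of them called it.

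Mtap, the nearest entry on the other side at 1 FPKM or more, was closer between the subsets. This gene, which encodes a methionine salvage enzyme and lies 93.4 kb from Cdkn2a, measured 64.4 FPKM (B10+) and 61.0 FPKM (B10-) in culture 1. In culture 2 it was at 81.7 and 73.0 FPKM. Its log2 difference was 0.08 and 0.16. Of 9 other entries within 1 Mb of Cdkn2a that reached 1 FPKM in any library, 2 had more than 2-fold higher FPKM in B10+ cells in both cultures, Cdkn2b and the interferon gene Ifnb1. On the log2(FPKM + 1) scale Cdkn2b was the 1 entry past 2-fold in both. Ifnb1 was 2.01-fold higher in culture 1, at 1.87 against 0.931 FPKM, and 6.59-fold higher in culture 2, at 12.8 against 1.94 FPKM. Other entries on the side of Mtap also differed: Klhl9, an adaptor of a ubiquitin ligase, had log2 differences of 0.60 and 0.91. In culture 2 the interferon genes Ifna2 and Ifna4 differed by 1.05 and 1.11, against 0.06 and -0.26 in culture 1.

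**Figure D4:**
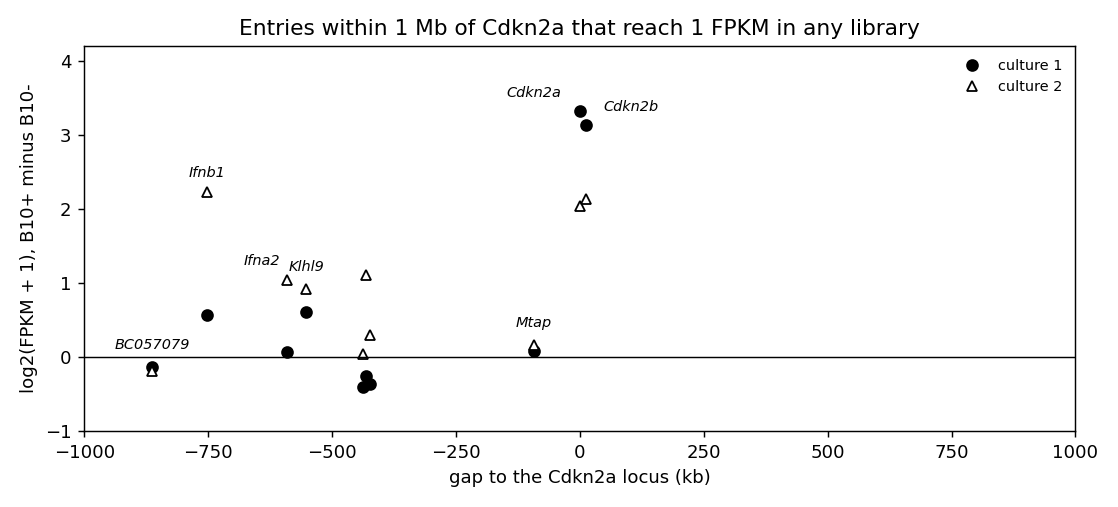
Difference in log2(FPKM + 1) between B10+ and B10- cells for Cdkn2a and the 9 other entries within 1 Mb that reach 1 FPKM, against the gap to the Cdkn2a locus in kb (culture 1 filled circles, culture 2 open triangles). Cdkn2a and Cdkn2b lie above 2 in both cultures, while Mtap lies at 0.08 and 0.16.

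Cdkn2c encodes p18Ink4c, an INK4 protein that in mice is required for the cell cycle exit of plasma cells. Cdkn2c (chr4:109333481-109337977) measured 8.87 FPKM (B10+) and 5.85 FPKM (B10-) in culture 1, and 3.08 and 0.388 FPKM in culture 2. B10+ cells were 1.52-fold higher in culture 1 and 7.93-fold higher in culture 2, where the B10- value rests on about 14 to 32 fragments. The B10+ value of culture 2 lay below the B10- value of culture 1, so the subsets separated only within a culture. The log2 difference was 1.04 ± 0.73 (between-culture SD; 95% interval 0.24 to 1.84), and the block fit of limma gave an adjusted p of 0.255.

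Cdkn2d encodes p19Ink4d, and the table lists it at 2 places on chromosome 9, at loci of almost the same length. At the locus used, chr9:21092908-21095653, Cdkn2d measured 3.98 FPKM (B10+) and 1.78 FPKM (B10-) in culture 1, and 0.382 and 0.306 FPKM in culture 2. The other locus, chr9:123836860-123839607, was at 3.0, 1.5, 0.306 and 0.280 FPKM in the same order, and near-identical copies can share reads, so the level of either is uncertain. Both loci gave B10+ the higher value in each culture, by more in culture 1. In culture 2 the used locus rests on about 11 to 12 fragments in B10+ cells (95% Poisson interval 5.49 to 21). In B10- cells it rests on 13 to 14 (6.92 to 23.5), so the direction in that culture is not resolved. The log2 difference at the used locus was 0.46 ± 0.54 (between-culture SD; 95% interval -0.17 to 1.09), and the block fit of limma gave an adjusted p of 0.427.

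The 3 INK4 genes of the 10, without Cdkn2b, summed to 25.3 FPKM (B10+) and 7.97 FPKM (B10-) in culture 1. In culture 2 they summed to 7.36 and 0.890 FPKM. Cdkn2b alone measured 46.0 and 4.37 FPKM in culture 1, and 11.2 and 1.79 FPKM in culture 2. As a percentage of summed Cdk4 and Cdk6 FPKM, the sum of the 3 genes was 7.18% and 2.68% in culture 1, and 2.48% and 0.301% in culture 2. Cdkn2a enters it with 1 value for p16Ink4a and Arf, so the part that encodes INK4 protein is not known. This B10+ share was higher within each culture, but the B10+ value of culture 2 was just below the B10- value of culture 1. The exact permutation test gave p = 0.667. The overlap is that of these 3 genes, and a share that counts Cdkn2b was not tested. Within the sum of these 3 genes, Cdkn2a made up 49.2% in B10+ and 4.33% in B10- cells of culture 1. In culture 2 it made up 53% and 22%. The groups did not overlap, and p was 0.333 in the exact permutation test, the smallest possible.

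These genes differed more between the cultures than between the subsets, Cdkn2a apart. In limma's test of culture 2 against culture 1, with the subset as a term, 2 of 9 genes were called higher in culture 2 and 6 lower, against 20.9% of all tested entries called higher and 40.9% called lower, 61.7% in either direction. Ccnd2 rose, with a log2 difference of 2.91 ± 0.14 (SE, adjusted p = 0.00285), a ratio of 8.25 in B10+ and 6.99 in B10- cells. Cdk6 rose by 1.67 (adjusted p = 0.00287). Cdk4, Ccnd3, Cdkn1a, Cdkn1b, Cdkn2c and Cdkn2d fell.

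Of the inhibitors, Cdkn1a fell by 2.07 on the log2 scale (adjusted p = 0.00289 in limma's test), Cdkn1b fell by 1.98 (adjusted p = 0.00349) and Cdkn2c fell by 1.79 (adjusted p = 0.00878). Ccnd3 fell by 1.47 (adjusted p = 0.0161), as did Cdkn2d (adjusted p = 0.0081). Cdkn1a and Cdkn2d passed the filter only through the libraries of culture 1, where they are high. Cdkn2a was the 1 tested gene without a call, at -0.81 (adjusted p = 0.104). The median over the 9 genes was -1.47, against -0.30 over all tested entries.

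Some of these calls depended on the scaling of the libraries. Cdk4 fell by 0.68 (adjusted p = 0.0143 in limma's test), but its difference was -0.20 under quantile normalization (adjusted p = 0.3) and -0.22 when scaled to the sum over entries of at least 1 kb without histones (adjusted p = 0.214). Ccnd3 was at -1.06 under the latter (adjusted p = 0.0518). Of the full library sum, histone entries included, 98.1% to 99.3% lay in entries under 1 kb. Scaled to the library sum without histones, Cdk6 (1.2, adjusted p = 0.411), Ccnd3 (-1.87, 0.208) and Cdk4 (-1.16, 0.396) lost their calls. Ccnd2, Cdkn1a, Cdkn1b, Cdkn2c and Cdkn2d kept theirs under those 3 scalings, and Cdkn2c missed the threshold when the subset term was dropped (adjusted p = 0.0571). What differed between the cultures is not given in the labels, and each culture is 1 preparation.

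Of 84 other genes of the pathway in 7 lists, 80 were tested. Without the block limma called 0 of them. Unadjusted, 2 were higher (Cdkn2b and Perp) and 0 lower at a p under 0.05 in that fit, against 1.05% and 0.0868% of all tested entries. With the block limma called 1 higher and 0 lower, against 0.781% and 0.0772% of all tested entries. At an unadjusted p under 0.05 that fit held 21 higher and 2 lower (Myc and Btg2), against 10.5% and 4.66% of all tested entries. Of the 80, 37 were higher in B10+ cells in both cultures and 13 lower in both, against 33.4% and 31.8% of all tested entries. Their median log2 difference was 0.23.

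The 1 call with the block was Perp, a membrane protein gene that p53 activates. Perp measured 12.1 FPKM (B10+) and 0.894 FPKM (B10-) in culture 1, and 7.21 and 0.293 FPKM in culture 2. Both B10+ libraries were above both B10- libraries, and the log2 difference was 2.73 ± 0.08 (between-culture SD), and limma's adjusted p was 0.026 with the block and 1 without it. Like Cdkn2a, Perp passed the filter only through the B10+ libraries, where it is high. The other 17 tested genes of the p53 list, which holds Trp53 and its targets, were not called. Over all 18, 4 were higher in both cultures, 5 lower in both and 9 of opposite direction, with a median of 0.09. Btg2, an antiproliferative target of p53, was lower in B10+ cells of both cultures (36.0 against 60.9 FPKM, and 34.5 against 48.2 FPKM; log2 difference -0.61), as was Plk3 (-0.74 and -0.13). The others lower in both were Bax (-0.15 and -0.10), Aen (-0.04 and -0.24) and Mdm4 (-0.48 and -0.02). Higher in both, besides Perp, were Zmat3 (0.33 and 0.76), Gadd45a (0.26 and 0.40) and Ccng1 (0.09 and 0.41). Zmat3, like Perp, passed the filter only through the B10+ libraries, so the place of either in the count of genes higher in both carries no weight.

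Genes that act after the D-type cyclins came next. Of 7 tested genes for cyclin E, Cdk2 and their activators, 5 were higher in both cultures and 1 was lower in both, with a median log2 difference of 0.44. Ccne2, a cyclin that pairs with Cdk2, measured 65.3 FPKM (B10+) and 40.0 FPKM (B10-) in culture 1, and 8.29 and 3.84 FPKM in culture 2 (block fit of limma, adjusted p = 0.144). Ccne1, the other cyclin E gene, was close in culture 1, at 29.0 and 23.5 FPKM, and far apart in culture 2, at 6.70 and 0.552 FPKM. Cdk2 (log2 difference 0.44) and Ccnh (0.40), part of the kinase that activates Cdk2, were higher in B10+ cells in both cultures. Mnat1 was higher in both (0.13 and 0.09), its partner Cdk7 lower in both (-0.19 and -0.26), and the phosphatase gene Cdc25a differed by -0.05 and 1.46. In this list 0 genes were called higher and 5 lower in culture 2 (Ccne1, Ccne2, Cdk2, Ccnh and Mnat1), against 20.9% and 40.9% of all tested entries.

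Among 12 tested pocket proteins and E2f and DP factors, 6 were higher in B10+ cells in both cultures, 1 was lower in both and 5 were of opposite direction, with a median of 0.44. Tfdp1, a partner of E2f proteins, measured 90.4 FPKM (B10+) and 62.7 FPKM (B10-) in culture 1, and 45.8 and 28.9 FPKM in culture 2. Rbl1, which encodes the pocket protein p107 and is itself an E2f target, was at 28.5 and 19.5 FPKM in culture 1, and at 23.1 and 8.23 FPKM in culture 2. B10+ cells were the higher subset for both genes in each culture, and E2f2 (0.28 and 0.92) and E2f3 (0.24 and 0.92) had log2 differences of the same sign. The gene lower in both was E2f5 (-0.41 and -0.21). Opposite in direction were E2f1 (-0.09 and 1.46), E2f4 (-0.37 and 0.20), E2f6 (-0.44 and 0.50), Rb1 (0.18 and -0.27) and Rbl2 (-0.03 and 0.61).

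Of 10 tested genes for Cdk4 folding and for turnover of inhibitors and cyclins, 3 were higher in both cultures, 3 lower in both and 4 of opposite direction, with a median of -0.00. Cks1b, a cofactor in the degradation of p27, measured 143 FPKM (B10+) and 112 FPKM (B10-) in culture 1, and 52.4 and 17.1 FPKM in culture 2. In culture 1 its log2 difference was 0.34, and in culture 2 it was 1.56. Ambra1, which directs the degradation of D-type cyclins, was lower in B10+ cells of both cultures (-0.27 and -0.16), as were Fbxo4 (-0.06 and -0.48) and the kinase chaperone Cdc37 (-0.32 and -0.09). Fbxo31 (0.21 and 0.07) and Btrc (0.02 and 0.09), both subunits of ubiquitin ligases, were the others higher in both. Skp1a (0.04 and -0.17), Cul1 (0.01 and -0.19), Fbxw7 (-0.20 and 0.35) and Skp2 (-0.04 and 0.70) had opposite directions.

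Among 15 tested inducers and repressors of D-type cyclins and inhibitors, 2 were higher in B10+ cells in both cultures, 3 lower in both and 10 of opposite direction, with a median of -0.02. Myc, which activates Ccnd2 and Cdk4 and represses Cdkn1a, measured 28.6 FPKM (B10+) and 56.6 FPKM (B10-) in culture 1, and 249 and 449 FPKM in culture 2. B10- was the higher subset in each culture, and both culture 2 libraries were above both of culture 1. The log2 difference of Myc between the subsets was -0.90 ± 0.08 (between-culture SD; block fit of limma, adjusted p = 0.0813), and between the cultures it rose by 3.02 (adjusted p = 0.00285). Rel, an NF-kB subunit, was also high in culture 2, at 356 and 316 FPKM against 41.9 and 56.9 FPKM.

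Ezh2, the methyltransferase that silences the Cdkn2a locus, measured 42.9 FPKM (B10+) and 29.9 FPKM (B10-) in culture 1, and 45.8 and 22.8 FPKM in culture 2. Its log2 difference was 0.74 ± 0.33 (between-culture SD; block fit of limma, adjusted p = 0.199). Mxd4, an antagonist of Myc, was higher in B10+ cells by 0.55 in both cultures. Bcl6, a repressor of Cdkn1a in germinal centre B cells, differed by -0.92 and 0.07. Zbtb17 (-0.19 and -0.21) and Foxo3 (-0.55 and -0.02) were, with Myc, the genes lower in both.

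The 16 genes of S, G2 and M phase had the largest median log2 difference of the 7 lists, 1.98, followed by 1.77 for the 2 tested genes of the list of other inhibitors, Cdkn2b and Cdkn3. Of the 16, 15 were higher in B10+ cells in both cultures, Mcm3 being the other one, and 7 were more than 2-fold higher in both, against 2.28% of all tested entries. None was called with the block, where 10 were higher at an unadjusted p under 0.05, against 10.5% of all tested entries. The list had a median log2 difference of 0.90 in culture 1, against 2.70 in culture 2. Ccnb1, the mitotic cyclin B1, measured 79.1 FPKM (B10+) and 22.1 FPKM (B10-) in culture 1, and 14.2 and 0.643 FPKM in culture 2. Ccnb2 (block fit of limma, adjusted p = 0.0549), Cdc20 and Plk1 had differences of 1.90, 2.05 and 1.83 on the log2 scale. Cdkn3, a phosphatase that acts on Cdk2 and is expressed with mitotic genes, measured 4.48 FPKM (B10+) and 1.11 FPKM (B10-) in culture 1, and 1.86 and 1.10 FPKM in culture 2.

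These genes had higher values in the same libraries of each culture as the INK4 genes and cyclin E, and their part in those differences was not tested. Markers of plasma cells, 4 of 5 tested, summed higher in B10+ cells. The sum was 182 FPKM (B10+) and 104 FPKM (B10-) in culture 1, and 99.6 and 56.2 FPKM in culture 2. Xbp1 made up most of it in every library. Of the 4, 3 were higher in B10+ cells in both cultures. Their log2 differences were 0.39 and 0.44 for Xbp1, 1.74 and 1.39 for Prdm1, and 1.59 and 3.39 for Igj. Sdc1 was of opposite direction, at -0.24 in culture 1 and 0.07 in culture 2. Macrophage markers summed to 9.03 and 7.72 FPKM in the B10+ and to 8.59 and 5.12 FPKM in the B10- libraries, and 2 of 8 were tested. Of these 2, Emr1 was higher in B10+ cells in both cultures (2.58 against 0.836 FPKM, and 2.55 against 0.220 FPKM), and passed the filter only there. Cd68 was lower in B10+ cells of culture 1 (5.72 against 7.55 FPKM) and higher in culture 2 (4.38 against 3.46 FPKM). The part of either in the results on Cdkn2a and Cdkn2c was not tested.

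**Figure D5:**
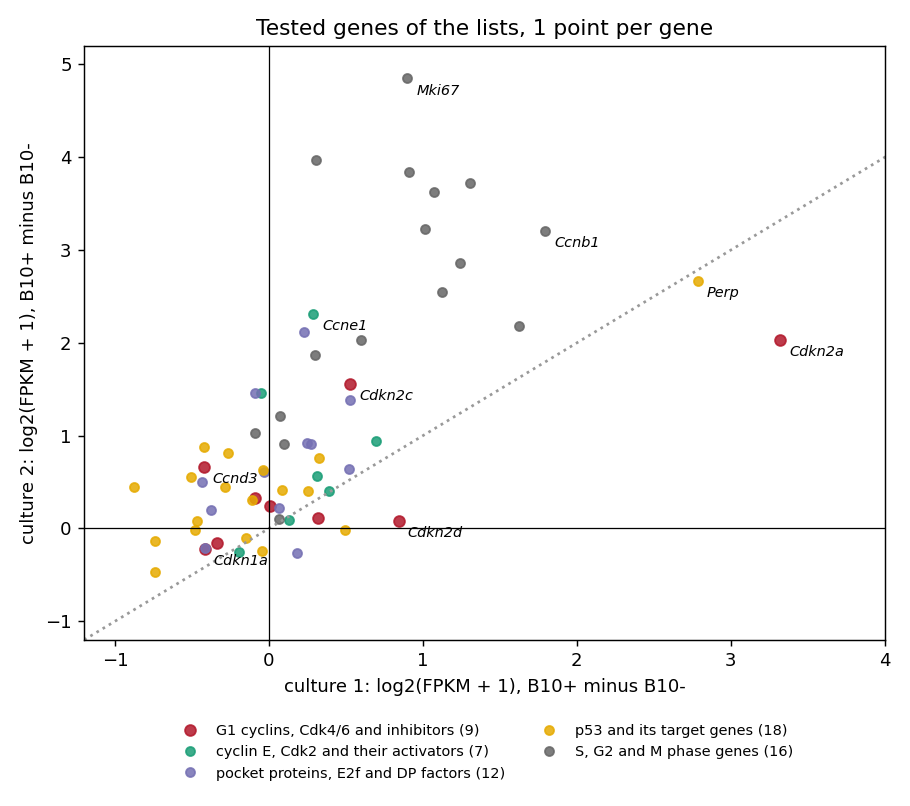
Difference in log2(FPKM + 1) between B10+ and B10- cells in culture 1 (horizontal) and in culture 2 (vertical), 1 point per tested gene, coloured by list; the dotted line marks equal differences. The S, G2 and M phase genes lie mostly above that line (medians 0.90 and 2.70), and Cdkn2a lies below it, at 3.32 and 2.03.

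Among all tested entries, the profiles over the 4 libraries closest to that of Cdkn2a were those of Gpr55, a lipid receptor, at a Euclidean distance of 0.38, Cblc, a ubiquitin ligase of the Cbl family, at 0.41, and Ctla4, an inhibitory receptor best known in T cells, at 0.51. Gpr55 measured 8.55 FPKM (B10+) and 0.349 FPKM (B10-) in culture 1, and 2.70 and 0.0237 FPKM in culture 2. Ctla4 was far more abundant, at 244 and 26.7 FPKM, and at 138 and 29.9 FPKM. All 3 were higher in both B10+ libraries than in both B10- libraries, which follows from their choice by likeness to Cdkn2a.

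The profiles closest to that of Cdkn2c were Sh3bgrl3 at a distance of 0.13, Smc4, a subunit of condensin, at 0.17, and Cdca2, a regulator of mitotic chromosomes, at 0.21. Smc4 measured 160 FPKM (B10+) and 122 FPKM (B10-) in culture 1, and 62.4 and 23.1 FPKM in culture 2. As with Cdkn2c, these 3 genes were lower in culture 2 and had the lowest value in its B10- library, which again follows from how they were chosen.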

How the data were processed

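Total RNA depleted of ribosomal RNA was sequenced from 4 libraries, 2 of B10+ and 2 of B10- cells. The authors deposited 1 table of FPKM values, per the labels, in 23699 entries of a symbol and a locus. Tools named in the submitters' processing notes are bcl2fastq 1.8.4, TopHat 1.3.2, DESeq (no version) and Cufflinks 2.1.1, with the build mm9. For their settings, the annotation and the handling of strand and of multiply mapped reads, details were not given in the sources used here. Loci are on mm9, with 1 added to the start.

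Values were tested as log2(FPKM + 1) with limma-trend (limma 3.58.1, R 4.3.3), two-sided, over the 10367 entries with at least 1 FPKM in at least 2 libraries. P-values were adjusted by Benjamini-Hochberg over all of them, with a threshold of 0.05. The planned fit had no culture term. The labels state that the libraries of a replicate number share a culture, and deviations from the subset means correlated at 0.865 within a culture, so the fit with the culture as a block is printed beside it. That block leaves 1 residual degree of freedom, and its errors lean on the spread over all entries. Replicates are cultures, and there are 2. The procedure was tested on simulated data.

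Fragments were estimated from the steps between low values, using GENCODE basic transcript lengths over 1000 bases, and share the uncertainty of those lengths. No count test was run, since only part of the values came out whole. FPKM values are relative, so a few abundant RNAs can lower all others. Reads of the INK4 paralogues and of both Cdkn2d loci may have been split.

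The genes and lists were chosen with earlier results of these data known. All 10 genes are named. Each list names the 4 tested genes with the smallest p in the fit with the block and every gene behind a count of 5 or fewer. For the 2 tested genes with the largest difference, the 3 closest profiles are named. Rel, Mtap and the other neighbours of Cdkn2a were named after their values were seen. Alternatives were the pseudocount, the filter, the scaling, summed loci, the block and leaving out each library. Some results are not reported here.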

Additional observations from a re-analysis of the deposited data

Results flagged for a closer look

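In 3 of the 10 genes the cultures disagreed in direction, with 1 library of each subset per culture. The log2 difference between B10+ and B10- cells was 0.15 in culture 1 and -0.16 in culture 2 for Ccnd1, -0.43 and 0.66 for Ccnd3, and -0.09 and 0.32 for Cdkn1b. The difference between the cultures was not tested. Opposite directions were found in 34.7% of all tested entries.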

How the results depend on the processing

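The culture block, which follows the pairing of libraries by culture in the labels, raised the calls over all entries from 0 higher and 0 lower to 81 and 8, and from 0 to 1 for pathway genes called higher (Perp). Other settings with the block called 40 to 167 entries higher and 5 to 23 lower, the most under quantile normalization. Pathway genes called higher numbered 2 with a pseudocount of 0.1 (Cdkn2b, Perp), 1 with no filter, 1 with a minimum of 5 FPKM, 4 under quantile normalization (Ccnb1, Ccnb2, Cdkn2b, Perp), 1 with the library sum without histones and 2 with the sum over entries of at least 1 kb, an alternative added after seeing the data. Of the 10 genes, 1 (Cdkn2a) was called higher with the block under the pseudocount of 0.1, quantile normalization and both library sums. Genes called higher in culture 2 numbered 1 (Ccnd2) with the library sum without histones. The difference of Cdkn1b was -0.02 under quantile normalization with or without the block, and that of Cdk6 was 0.04 with the library sum without histones, with or without it. Cdkn2a was not tested with a minimum of 5 FPKM, and Ccnd1 was tested only with no filter (adjusted p = 0.986 with the block). The cause of these changes was not tested.

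Leaving out 1 library unbalances the cultures between the subsets and leaves 1 lone library, assumed to vary like the others. The pathway genes called higher ranged from 0 to 11, the latter without the B10- library of culture 1, a fit that called 130 entries higher and 14 lower in all. Differences then ranged from 1.95 to 3.41 for Cdkn2a, -0.11 to 2.19 for Cdkn2c, -0.46 to 1.39 for Cdkn2d, -1.39 to 1.64 for Ccnd2, -0.89 to 1.13 for Ccnd3, -0.18 to 0.61 for Cdk4, -1.13 to 0.63 for Cdk6, -1.41 to 0.76 for Cdkn1a and -0.97 to 1.21 for Cdkn1b, so Cdkn2a alone of these 9 kept its direction. Log2 ratios of B10+ to B10- cells ranged from -2.58 to 2.49 for Ccnd2 to Ccnd3, -1.76 to 0.82 for Cdk6 to Cdk4, 0.23 to 1.12 for Cdkn1b to Cdkn1a, -1.13 to 1.09, -0.13 to 0.21 and -2.29 to 2.46 for the shares of Ccnd1, Ccnd2 and Ccnd3, and -2.75 to 2.54 for Cip/Kip to D-type cyclins. With INK4 as Cdkn2a, Cdkn2c and Cdkn2d only, they ranged from 0.66 to 3.81 for INK4 to Cdk4 and Cdk6, and from 1.21 to 3.56 for Cdkn2a within INK4.

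With 2 cultures, a gene's own spread rests on 2 values, and depth limits the values under about 1 FPKM, above all Cdkn2a in B10- cells.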
